A study of Saccharomyces cerevisiae with 15 samples.

Results

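The large subunit of the cytosolic ribosome was followed through the 78 genes that encode its proteins, out of 5539 named yeast genes measured. Members were taken by symbol from the platform annotation: RPL with a number and an optional A or B, and the stalk genes RPP0, RPP1A, RPP1B, RPP2A and RPP2B. Of these, 66 formed 33 pairs that share a name apart from the letter, 10 carried no letter, and the other 2 carried a letter without forming a pair. Each member was measured by 2 spots, which were averaged.

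The study compared wild-type Saccharomyces cerevisiae held in 1.0 mM arsenite, As(III), with wild-type cells that were not stressed. No deletion or transgene is named for either side. Both RNAs shared a slide, so each of the 15 arrays gave its own treated to untreated ratio. The time points 15 min, 30 min and 18 h had 3 arrays each and the 1 h point had 6. Cy3 carried the treated RNA on 1 h replicates 1, 3 and 6, and Cy5 carried it on all other arrays. No label says that replicates are separate cultures, and p-values here weigh only a scatter among arrays that may be technical. Every level below is the log2 of treated over untreated RNA after subtraction of the array's median gene. The direction, treated over untreated, is likely rather than stated: it rests on the dye labels, the wording of the titles and the signs of the deposited zeros.

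Ribosomal proteins of the large subunit surround the rRNA that forms peptide bonds, line the tunnel through which the new chain leaves and build the stalk that receives elongation factors. In yeast most of them are encoded by a pair of paralogous genes, and their transcripts are among the most abundant of growing cells. Their transcription depends on Rap1, Fhl1, Ifh1 and Sfp1 under the control of the TORC1 and protein kinase A pathways. Repression of the whole set together is a known feature of the yeast response to many stresses. The A and B transcripts of a pair can be near-identical, and spotted probes can bind both, so values are uncertain as to the copy. The letters of RPP1 and RPP2 are an exception in kind, since these A and B genes encode distinct stalk proteins.

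Some libraries stood apart. On 30 min replicate 1 the members' median was -0.40, against -3.37 and -3.41 on replicates 2 and 3. Its member values were uncorrelated with those of the other 2 (r = -0.03 with each, across 78 genes measured on shared slides), which correlated with each other at 0.95. On 1 h replicate 5 the members correlated with those of the other 1 h arrays at 0.57 to 0.67, whereas pairs among the other 5 arrays gave 0.79 to 0.93. A scan in blocks of 272 consecutive spots, added after the data had been seen, found that in 5 blocks the ratios did not match the median of the 1 h arrays at their own place. They matched it 16 spots earlier. These were blocks 22, 23 and 24 of 1 h replicate 5 (r of 0.02, 0.03 and 0.07 at their own place and 0.94, 0.92 and 0.93 at the offset), block 16 of 18 h replicate 1 (0.08 and 0.72) and block 21 of 15 min replicate 3 (-0.03 and 0.46). Of the member values, 12 lay in these blocks: RPL7A, RPL17B, RPL25, RPL26A, RPL33A, RPL35B, RPL41A and RPL41B at 1 h, RPL34B and RPP1B at 18 h, and RPL11A and RPL42A at 15 min. They are reported as deposited, with the values without them beside the results they move. On 15 min replicate 1 the members correlated with those of replicates 2 and 3 at 0.05 and 0.06. Those of 15 min replicate 2 correlated with 30 min replicates 2 and 3 at 0.84 and 0.81, and with replicate 3 of its own time at 0.44.

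**Figure D1:**
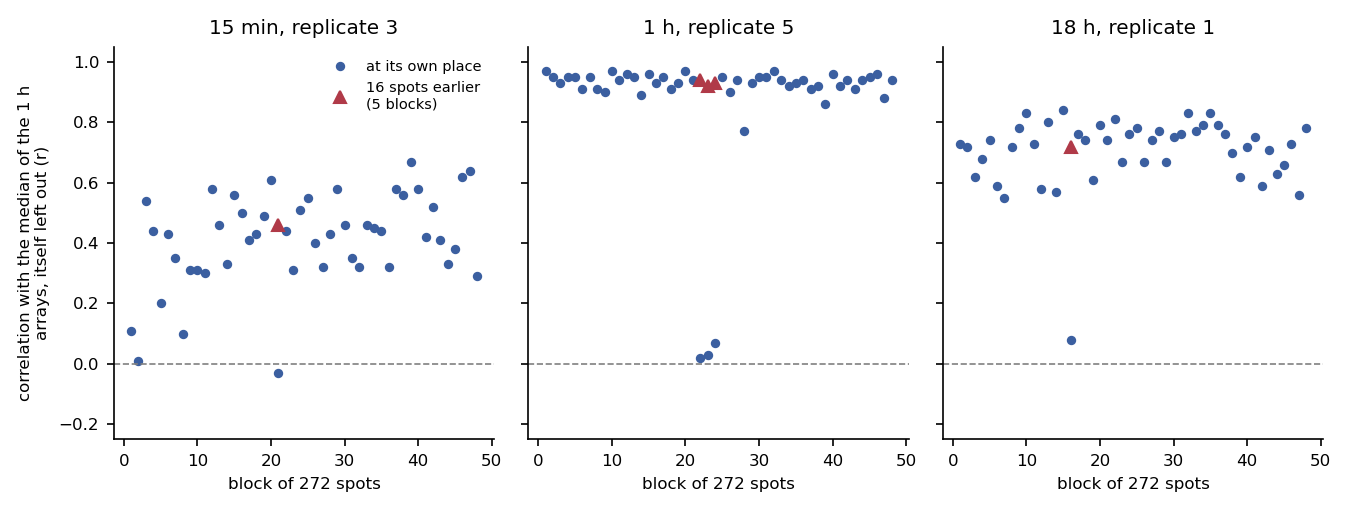
Correlation (r) of each block of 272 consecutive spots with the median of the 1 h arrays, on the 3 arrays that held displaced blocks. Circles are blocks at their own place and triangles are the 5 displaced blocks compared 16 spots earlier. On 1 h replicate 5 the 3 displaced blocks sit at 0.02 to 0.07 while the other blocks lie at 0.77 or above.

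After 15 min no member was called, and after 30 min, 1 h and 18 h nearly all members were lower in arsenite. The numbers called lower were 0, 70, 74 and 70 of 78 in order of time (limma over all genes, adjusted p under 0.05). Over all genes, 0.0722%, 12.7%, 22.8% and 8.36% were called lower at the same times. No member was called higher at any time by limma, where 0.921%, 4.98%, 17.3% and 7.94% of all genes were. The members' median was -0.68, -2.42, -3.94 and -2.22, while the median of all genes lay between 0 and 0.02. No label names single or sorted cells, so lower levels in every cell and very low levels in some cells cannot be told apart. Centring hides any shift shared by most genes.

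By array, the members' medians were -0.51, -1.30 and -0.17 at 15 min and -0.40, -3.37 and -3.41 at 30 min. The 1 h arrays gave -3.15, -3.49, -4.08, -4.06, -4.21 and -4.69, and the 18 h arrays -2.85, -2.18 and -1.75. All 6 arrays at 1 h lay below all 3 at 18 h, and 2 of the 3 arrays at 30 min lay within the range of those at 1 h. On every array of a time point, 43, 54, 70 and 73 members lay below the median gene, in order of time. The shares of all genes that did so were 14.2%, 27.2%, 21.6% and 24.6%. At 15 min, 10 of 78 members were below 0 at an unadjusted p under 0.05 by limma, as were 309 of all 5539 genes. The members were RPL4A, RPL4B, RPL7A, RPL22B, RPL24A, RPL31A, RPL33B, RPL35A, RPL38 and RPP2A, of which RPL4A had the lowest value (-1.65). At 18 h the count called lower was 35 without replicate 1 (152 of all genes) and 48 without replicate 2 (243). It was 22 when arrays were not centred (46). The 30 min count rested on replicates 2 and 3. It was 10 without replicate 2 (27 of all genes), 9 without replicate 3 (21) and 74 without replicate 1 (1001).

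**Figure D2:**
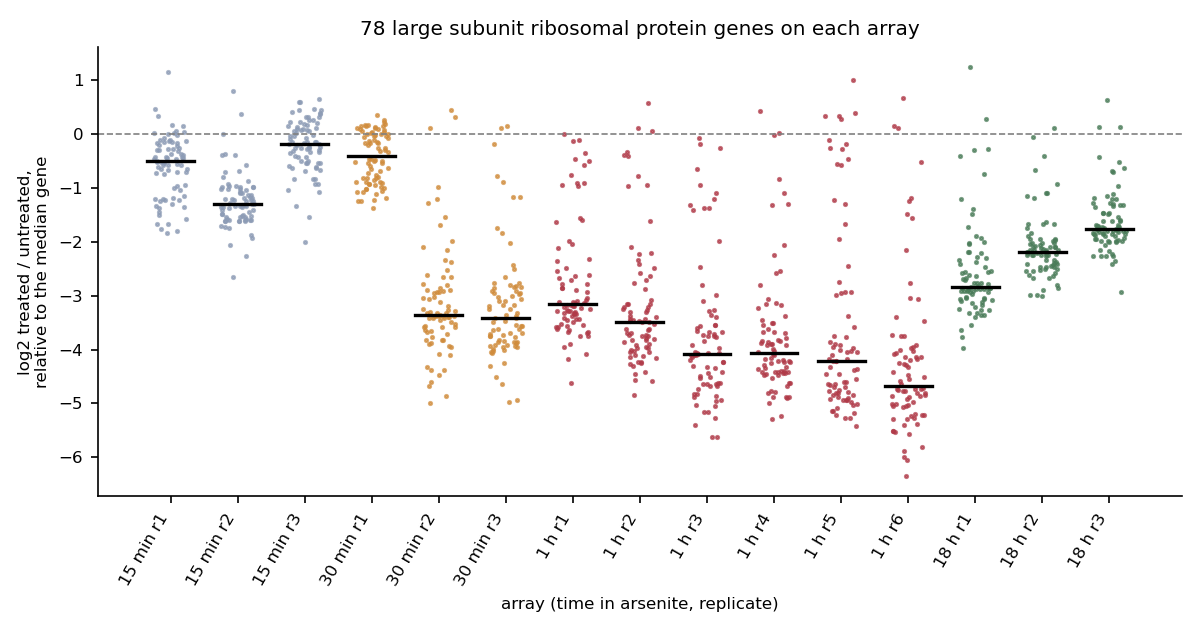
Log2 treated over untreated of the 78 members on each of the 15 arrays, relative to the array's median gene. Points are genes and bars are array medians. At 1 h the array medians lie between -4.69 and -3.15, and 30 min replicate 1 sits at -0.40, far from the other 30 min arrays.

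For comparison, of 54 RPS genes, 50, 52 and 50 were called lower at 30 min, 1 h and 18 h, with medians of -2.43, -3.96 and -2.31. The 33 MRPL genes, which encode large subunit proteins of the mitochondrial ribosome, had medians of 0.04, -0.11 and -0.22, with 1, 4 and 4 called lower. The median over the large subunit members was thus close to that of the small subunit at each time, and the mitochondrial genes lay near the median gene. No difference between these lists was tested.

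**Figure D3:**
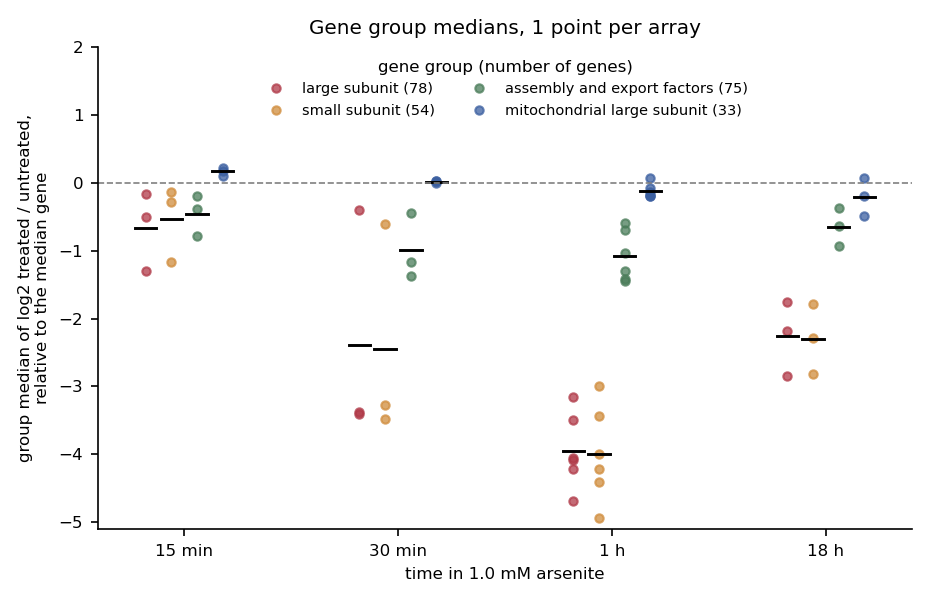
Median log2 treated over untreated of 4 gene groups on each array, by time in arsenite, relative to the median gene. Each point is 1 array and bars are means over the arrays of a time point. The 6 large subunit medians at 1 h lie between -4.69 and -3.15, while the mitochondrial medians stay between -0.49 and 0.22 on all arrays.

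The members did not all fall to the same extent. At 1 h, 36 were below -4, 27 lay from -4 to -3, 10 from -3 to -1, and 5 were at -1 or above, and the SD over members was 1.21 against 0.60 at 18 h. RPL3, whose protein lies beside the peptidyl transferase centre, was lowest. Its 6 arrays ran from -6.35 through a median of -4.78 to -3.69. That is a 31.2-fold lower level (-4.97 ± 0.49, limma SE, adjusted p = 5.2e-07). RPL20A (-5.89 to -3.26) and RPL2B (-6.06 to -3.90), the latter for another protein near the catalytic centre, followed with means of -4.81 and -4.74. The ranges of these genes overlapped, so their order is not resolved. RPL6B (-4.67), RPL21B (-4.63), RPL12A (-4.61), RPL13B (-4.57) and RPL16B (-4.52) made up the remaining 8 lowest, at 23.0-fold to 25.5-fold below untreated cells.

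The stalk genes fell together. RPP0, the protein that anchors the stalk to the ribosome, ranged from -4.78 to -3.22 at 1 h with a median of -4.30, all 6 arrays lying far below the median gene. Its mean was -4.15 ± 0.32 (17.8-fold lower, adjusted p = 4.2e-08). The acidic stalk proteins had 1 h means of -3.28 for RPP1A, -3.75 for RPP1B, -4.29 for RPP2A and -3.23 for RPP2B, each called lower at 30 min, 1 h and 18 h. Leaving out the displaced block, RPP1B was -1.71 at 18 h and was no longer called (adjusted p = 0.057, -1.60 and 0.027 as deposited). RPL12A and RPL12B, which encode one and the same protein at the base of the stalk, had means of -4.61 and -4.45.

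Genes without a copy letter ran from -4.97 (RPL3) to -1.08 (RPL30) at 1 h, and none was among the 5 members at -1 or above. RPL28 (-3.94 ± 0.42), known as the site of cycloheximide resistance mutations, RPL32 (-3.83 ± 0.31) and RPL38 (-3.35 ± 0.30) were lower on all 6 arrays at 1 h. RPL5, which binds 5S rRNA, ranged from -4.18 to -2.41 with a mean of -3.03 ± 0.34. RPL39, a small protein of the exit tunnel, was more variable, from -3.39 to -0.50 with a mean of -2.29 ± 0.34 (adjusted p = 3.9e-05). All of these were called at 30 min and 18 h as well.

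RPL25, a protein at the mouth of the exit tunnel, shows what a displaced block does to a mean. Its 1 h arrays gave -3.59, -4.02, -4.07, -4.89, 0.33 and -5.52 in order of replicate number. Only replicate 5, whose value lay in block 23, was above the median gene. The mean was -3.63 ± 0.54 as deposited and -4.42 ± 0.37 without that value, a difference of over 1.5-fold on the linear scale, and RPL25 was called lower at 18 h only when the block was left out (-2.23 in both fits, adjusted p = 0.058 and 0.0047). Likewise the 1 h means of RPL17B (-3.27), RPL35B (-3.08), RPL33A (-3.18) and RPL26A (-3.51) became -4.00, -3.75, -3.77 and -4.10 without the displaced values. RPL41A, which encodes a very short peptide, went from -1.45 to -1.72 and RPL7A from -2.93 to -3.12. Without the displaced blocks the counts called lower at 30 min, 1 h and 18 h were 72, 74 and 71 (727, 1278 and 484 of all genes). Single values outside these blocks stood apart too, picked here after they were seen: RPL42B read 1.00 on 1 h replicate 5, where its other 5 arrays lay between -4.19 and -3.62, and RPL26B read 0.58 on replicate 2 beside -3.15 to -0.97.

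RPL10 and RPL30 lay far closer to the median gene than most members. RPL10, the protein that joins the subunit last in the cytoplasm, ranged from -1.61 to -0.76 at 1 h with a median of -1.31. The mean was -1.23 ± 0.20, a 2.35-fold lower level (adjusted p = 0.00013). RPL30, whose protein binds its own transcript and inhibits its splicing, ranged from -1.30 to -0.46 with a mean of -1.08 ± 0.20 (2.11-fold lower, adjusted p = 0.00032). All 6 arrays of both genes were below the median gene, and none reached the range of RPL3. In the reference gene table RPL30 is the neighbour of RPL24A, which was -3.39 ± 0.31 at 1 h (-4.01 to -3.14), so the values of these adjacent genes did not overlap.

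The 4 members that were not called lower at 1 h were RPL15A, RPL43B, RPL41B and RPL31B. RPL15A read 0.00, 0.06, -0.07, 0.43, 0.39 and 0.68 on the 6 arrays, with a mean of 0.25 ± 0.16 (adjusted p = 0.25). RPL43B read -0.13, 0.11, -0.19, 0.03, -0.18 and 0.16, with a mean of -0.03 ± 0.13 (adjusted p = 0.86). Both genes stayed close to the median gene on all 6 arrays. RPL41B (-0.48 ± 0.20, adjusted p = 0.069, and -0.46 and 0.12 without its displaced value) and RPL31B (-0.56 ± 0.23, adjusted p = 0.063) were below it on all 6 arrays without passing the test, and RPL31B was called at 18 h (-0.98 ± 0.32, adjusted p = 0.048). RPL8B was called by a small margin (-0.51 ± 0.20, adjusted p = 0.048) and RPL40B, a fusion of ubiquitin and a ribosomal protein, was -1.39 ± 0.16.

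Spot brightness moved with these differences. Because 10 arrays hold exact ratios of whole numbers, the brightness of both channels together could be recovered and ranked, up to common factors lost from a reduced ratio. The members' median brightness percentile among all genes was 95.8, and 68 members were in the brightest eighth of genes. Those 68 had a median of -4.05 at 1 h and all 68 were called lower. The 7 dimmest members, grouped after their values were seen, were RPL31B (percentile 23.8), RPL15A (26.0), RPL41B (37.4), RPL43B (40.5), RPL22B (55.5), RPL40B (60.3) and RPL8B (60.9). They had a median of -0.51, with 3 called lower. Brightness and the size of the fall did not always go together: RPL10 was the brightest member (percentile 99.3). The 523 genes of the brightest eighth that encode no ribosomal protein of the cytosol had a median of -0.26 at 1 h, and 41.1% were called lower. The part of brightness, or of background at dim spots, in these differences was not tested.

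**Figure D4:**
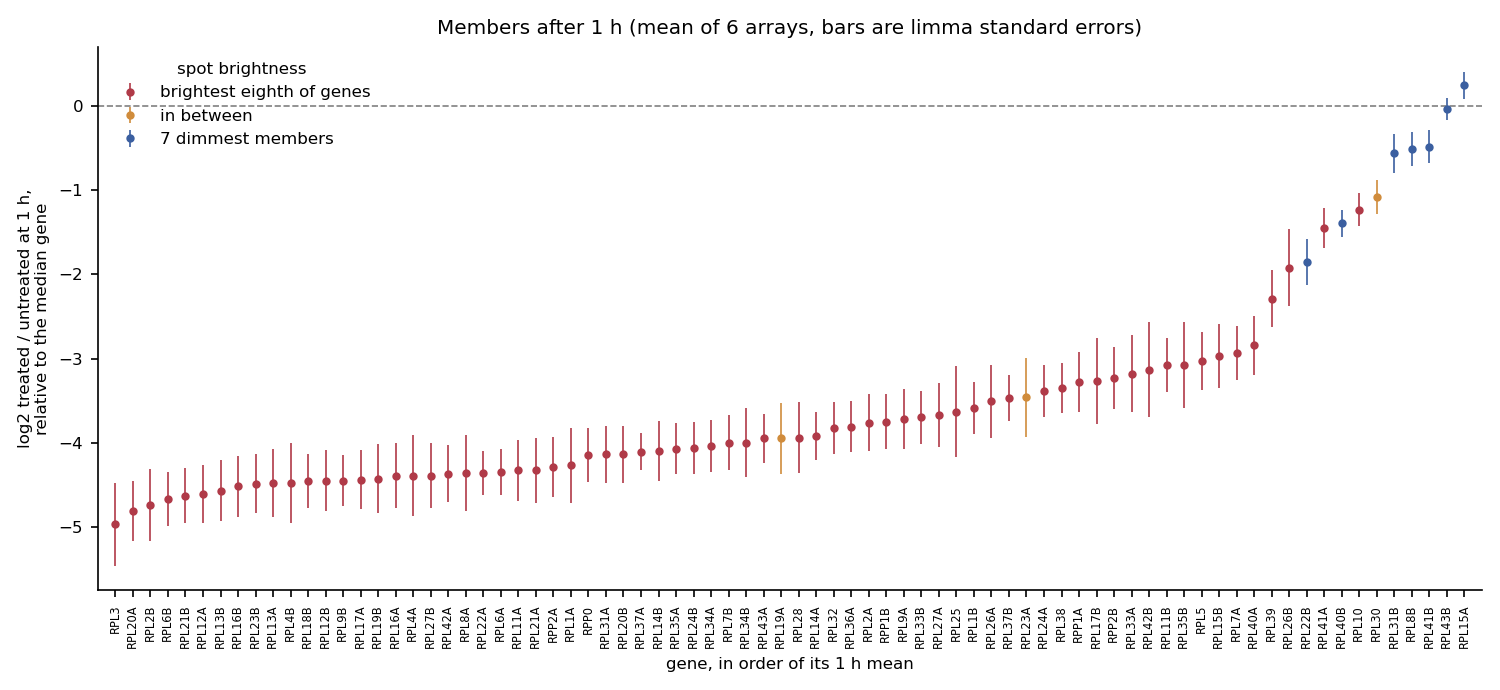
Mean log2 treated over untreated at 1 h for the 78 members in order, relative to the median gene. Bars are limma standard errors over 6 arrays and colours give the class of spot brightness. RPL3 is lowest at -4.97, RPL15A is highest at 0.25, and the 5 highest members are all among the 7 dimmest.

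The A and B copies were compared on the same slide over all 15 arrays with an exact two-sided sign-flip permutation test, adjusted over the 33 pairs (Benjamini-Hochberg). The difference passed in 12 pairs (17 at an unadjusted p under 0.05), with the A copy lower in 7 and the B copy lower in 5. The median size of the mean difference was 0.40 over the pairs. Single differences between copies had a median size of 0.49, and duplicate spots of one gene differed by a median of 0.08.

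In the RPL15 pair the B copy was lower on 15 of 15 arrays. The 1 h values of RPL15B (-3.74 to -1.99) did not overlap those of RPL15A (-0.07 to 0.68). A minus B averaged 2.51 ± 1.48 (SD, n = 15, exact p = 6.1e-05, the smallest that 15 arrays allow, adjusted p = 0.0013). In the RPL43 pair the A copy was lower on 14 of 15 arrays, with 1 h values of -4.59 to -3.28 for RPL43A and -0.19 to 0.16 for RPL43B. The mean difference was -2.58 ± 1.50 (SD, n = 15, exact adjusted p = 0.0013). Its means by time were -0.45 ± 0.56, -2.09 ± 1.43, -3.92 ± 0.55 and -2.51 ± 0.37 (SD), 30 min being the most variable, and the change with time was not tested.

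RPL8 (-2.37 ± 1.63) and RPL31 (-2.31 ± 1.66) also had a lower A copy on 14 of 15 arrays (SD, n = 15, exact adjusted p = 0.0013 and 0.0036). The 1 h means were -4.36 for RPL8A and -4.14 for RPL31A, against -0.51 and -0.56 for their B copies. RPL40A was lower than RPL40B on 13 arrays (-1.04 ± 0.95, exact adjusted p = 0.0068) and RPL41A lower than RPL41B on 13 (-0.90 ± 0.87, 0.0074, and lower on 13 of 14 with exact adjusted p = 0.005 without the displaced block). RPL22 missed the threshold (-0.98 ± 1.46, exact adjusted p = 0.057): RPL22B was the lower copy on all 3 arrays at 15 min and RPL22A on all 6 at 1 h (-4.36 and -1.85 for A and B). These 7 pairs are the ones with a member among the 7 dimmest, and in all 7 the dimmer copy was the less reduced at 1 h.

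In the other 26 pairs the median size of the mean difference was 0.35, against 2.31 in the 7 pairs with a dim copy, and 6 passed the test in each set. The largest belonged to RPL11, which contacts 5S rRNA together with RPL5: the A copy was lower on 14 of 15 arrays (-0.72 ± 0.78, SD, n = 15, exact adjusted p = 0.012), and without the displaced block its mean was -0.75. The RPP2 pair (-0.62 ± 0.60, exact adjusted p = 0.0036) and the RPL14, RPL23, RPL24 and RPL27 pairs, with a lower B copy by 0.37, 0.50, 0.43 and 0.39, were the others. The smallest differences were those of RPL12 (-0.01 ± 0.33), RPL21 (0.01 ± 0.64) and RPL16 (0.02 ± 0.58), where neither copy was lower on more than 10 of 15 arrays. Without the displaced blocks 13 pairs passed, RPL26 being the addition (-0.94 ± 1.36, n = 14, exact adjusted p = 0.039). The RPL26 difference was largest on 1 h replicate 2 (-4.31), where RPL26B stood apart. Its means at 15 min, 30 min and 18 h were 0.26, -0.50 and -0.14. The count of pairs that passed was 18 without 15 min replicate 1. With the 6 arrays at 1 h alone 0 passed, but so few arrays limit the smallest p-value, so that count cannot show that copies were alike.

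**Figure D5:**
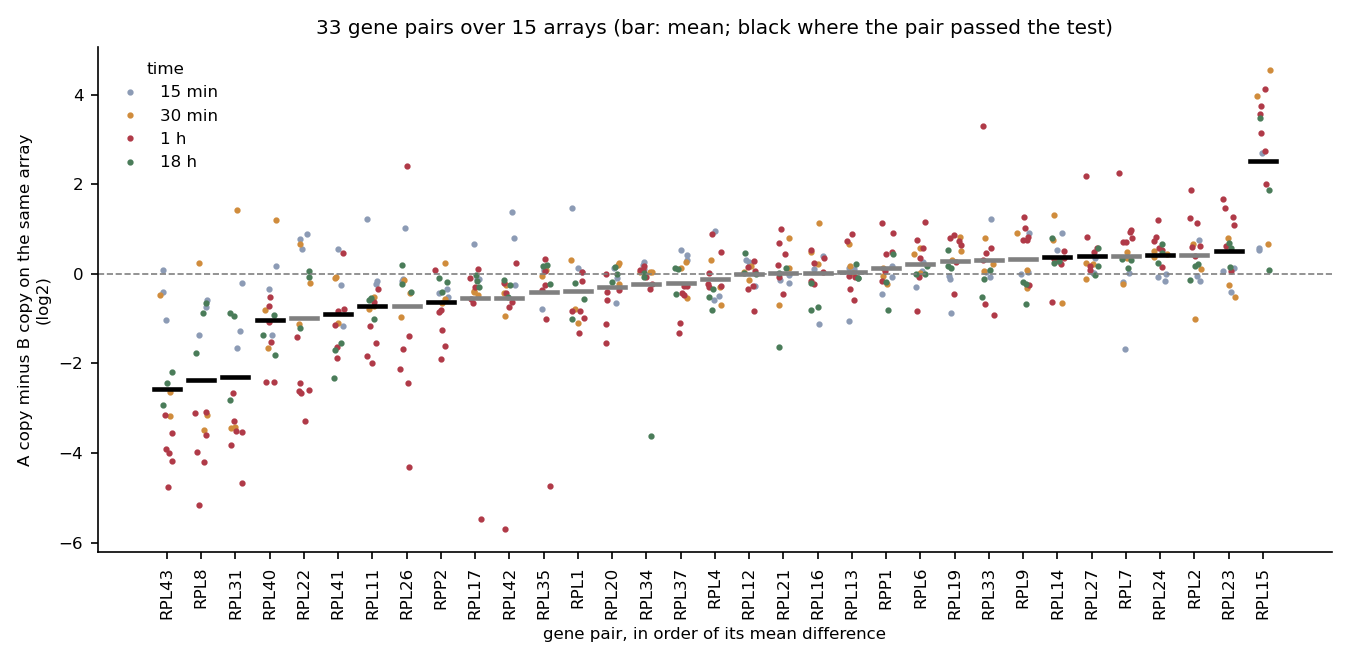
Difference in log2 treated over untreated between the A and B copy of 33 pairs on each of 15 arrays, coloured by time. Bars are means over the arrays, black where the pair passed the test. RPL43, RPL8, RPL31 and RPL15 lie apart at -2.58, -2.37, -2.31 and 2.51, and most other pairs lie close to 0.

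Between successive time points, few single genes passed the test. From 15 to 30 min the median difference was -1.68 with 0 members called, as for all genes (0%, limma). At an unadjusted p under 0.05, 41 members were lower, as were 296 of all 5539 genes (limma). Without 30 min replicate 1, 57 members were called lower (205 of all genes). From 30 min to 1 h the median difference was -1.40, or -0.40 without 30 min replicate 1, and RPL22A and RPL37A were called lower (0.0903% of all genes) and 0 members higher (0.379%). RPL37A read -1.08, -2.53 and -2.81 at 30 min and -4.65 to -3.64 at 1 h, so the groups did not overlap (-1.97 ± 0.37, adjusted p = 0.036). RPL22A read -1.12, -3.26 and -1.84 against -5.39 to -3.55 (-2.28 ± 0.45, adjusted p = 0.036). Neither was called without 30 min replicate 1 or without any one of 1 h replicates 3, 4, 5 and 6, and without 30 min replicate 2 or 3 there was 1 call.

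From 1 h to 18 h the median difference was 1.62, and 15 members were called higher at 18 h than at 1 h (2.96% of all genes) and 0 lower (2.06%). They were RPL6A, RPL6B, RPL12A, RPL13B, RPL14A, RPL16B, RPL18B, RPL20A, RPL21B, RPL22A, RPL34A, RPL34B, RPL35A, RPL37A and RPP1B. All 15 stayed below the median gene on average at 18 h. Differences between time points compare ratios, so a change in treated cells and one in untreated cells cannot be told apart. RPL21B had the largest difference apart from RPL34B (2.69 ± 0.57, adjusted p = 0.012). Its ratios ranged from -5.40 to -3.89 at 1 h and were -2.93, -0.92 and -1.98 at 18 h. RPL37A went from -4.65 to -3.64 to -1.92, -2.03 and -2.16 (2.08 ± 0.37, adjusted p = 0.004), with no overlap between the groups. The value of RPL34B (3.10) rested on a displaced block: its 18 h arrays read 1.24, -2.22 and -1.73, and without the first the difference was 2.03 and not called (adjusted p = 0.083). RPP1B likewise lost its call (2.04, adjusted p = 0.095), and RPL25 (2.18) and RPL26A (1.93) gained one. The count was again 15 (170 of all genes), 13 of them shared.

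The number of members called from 1 h to 18 h varied with the arrays and the settings used. It was 48 (276 of all genes) without 30 min replicate 1, and 22 (193) without 1 h replicate 1. Without 1 h replicates 3, 4, 5 and 6 it was 5, 7, 6 and 6 (94, 112, 126 and 107 of all genes). It was 7, 4 and 2 without 18 h replicates 1, 2 and 3 (145, 133 and 54 of all genes). With only arrays that had treated RNA in Cy5, which leaves 3 arrays at 1 h, it was 0 (41 of all genes). With a dye term it was 1 (58 of all genes), and the median difference was 1.63 in both fits. A replicate block gave 0 (3 of all genes) and a median of 1.28. Without centring 53 were called (289 of all genes), with a median of 2.63. RPL3, RPL2B and RPL4B, with differences of 2.51, 2.54 and 2.68, were not called. At the other end, RPL8B (-0.58), RPL41A (-0.43, or -0.16 without its displaced value), RPL31B (-0.42), RPL30 (-0.30) and RPL15A (-0.26) had differences below 0, and none was called. From 30 min to 18 h the median difference was 0.13, with 0 members called (limma, 0.325% of all genes higher). At an unadjusted p under 0.05 there were 0 members and 597 of all 5539 genes (limma). The median difference from 30 min to 18 h was 1.09 without 30 min replicate 1, and -0.23 and -0.32 without replicates 2 and 3. It was 0.82 with array weights, which called 19 members higher and 1 lower, beside 663 and 360 of all genes.

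Regulators of ribosomal protein genes were also measured. Of 36, 11 were called lower (30.6%, against 22.8% of all genes) and 3 higher (against 17.3% of all genes) at 1 h, with a median of -0.31. These shares are not far above those of all genes for lower calls and are below them for higher calls. HMO1, which binds many of these promoters, read -1.60 to -0.08 (-0.94 ± 0.22, adjusted p = 0.0022). RAP1 (-1.57 to 0.16, mean -0.77 ± 0.19), the general factor at these promoters, and IFH1 (-0.77 ± 0.21), the coactivator, were lower too. So was CKA2 (-0.77 ± 0.15), a catalytic subunit of casein kinase 2. FHL1 was lower to a smaller extent (-0.49 ± 0.15, limma adjusted p = 0.013), and SFP1 was not called (-0.14 ± 0.21, adjusted p = 0.63). LST8, a subunit of the TOR complexes, was higher on all 6 arrays, from 0.90 to 2.16 (1.68 ± 0.21, 3.21-fold, adjusted p = 5.9e-06). BCY1 (0.79 ± 0.24), the regulatory subunit of protein kinase A, and TOR1 (0.51 ± 0.18) completed the higher calls.

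Of 75 factors that assemble or export the large subunit, 44, 58 and 17 were called lower at 30 min, 1 h and 18 h (58.7%, 77.3% and 22.7%, against 12.7%, 22.8% and 8.36% of all genes). REH1 was the 1 called higher at 30 min and 1 h, where 4.98% and 17.3% of all genes were. Their 1 h median was -1.02. MAK5, an RNA helicase, was lowest (-4.10 to -1.29, mean -2.76 ± 0.43, adjusted p = 6.8e-05). EBP2 (-2.53 ± 0.32), BRX1 (-2.41 ± 0.26) and NSA2 (-2.14 ± 0.29), which act on nuclear precursors of the subunit, followed. The lowest of the 6 values of EBP2 (-4.01 on replicate 5) lay in a displaced block, the others running from -3.39 to -0.84. The place of EBP2 beside BRX1 and NSA2 is therefore not resolved. Counts of regulators and of assembly factors were not redone without the displaced blocks. REH1, which acts on late cytoplasmic particles, read 1.29 to 1.96 on the 6 arrays (1.61 ± 0.16, adjusted p = 5.3e-07).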

How the data were processed

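The authors deposited 1 log2 ratio per spot and array, and per the labels each slide carried treated and untreated wild-type RNA. Growth, treatment, scanning, background correction and normalisation are, like any genome build, not given in the sources used here. On 10 of 15 arrays every deposited log2 value was that of a quotient of whole numbers (relative tolerance 5e-14). Where Cy3 carried the treated RNA, 30, 5 and 23 zeros had a minus sign. How 15 min replicate 1 and 30 min replicate 1 were made is unknown, and their duplicate spots correlated at 0.646 and 0.836 (0.876 or above on the other 13 arrays).

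Gene medians of the arrays as deposited ran from -1.35 to 2.23, so each array was centred on its median gene. Spots of a gene were averaged. Signal over background is unknown, and precision is limited by the number of arrays. Names came from the platform annotation, and all 78 member symbols equalled those of the R64 reference table, used for names and neighbours only.

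All 5539 genes were fitted with limma 3.58.1 in R 4.3.3 (lmFit, eBayes, 1 mean per time point, 11 residual degrees of freedom), with Benjamini-Hochberg adjustment within a comparison and a threshold of 0.05. No dye term was used, because it can be estimated at 1 h alone. Pairs were tested in Python 3.11.15 by enumerating sign flips. The scripts were tested on simulated data. Alternatives covered centring, scaling, a brightness trend, dye, array weights, single spots, replicate block and leaving out arrays; leaving out displaced blocks was added after seeing the data.

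The members and the lists of regulators and assembly factors were chosen with earlier results of these data known. Members named were the stalk genes, those without a letter, the 8 lowest and 8 highest at 1 h, those not called lower at 1 h, the 6 pairs with the largest and 3 with the smallest difference, and the 5 largest and 5 smallest differences from 1 h to 18 h. From each list up to 4 called genes per direction were named. Others are named where a count or a displaced value singles them out, and FHL1 and SFP1 because they were introduced above.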

Additional observations from a re-analysis of the deposited data

Results flagged for a closer look

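At 1 h, RPL25 on replicate 5 (0.33) lay far from the other 5 arrays. It was the 1 case among 50 groups of 6 values at 1 h tested for a sample far from the others. Chance alone marks about 1 in 20 such groups. The value lay in a displaced block. The groups were the 40 members named by rule, the named pairs and the members' median. Other members were not tested, among them RPL42B, which read 1.00 on replicate 5 beside -4.19 to -3.62.

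The change relative to untreated cells differed between time points, by limma's contrast, for the following genes. Between 30 min and 1 h these were RPL22A (-2.28) and RPL37A (-1.97), lower at 1 h. Between 1 h and 18 h they were RPL6A (2.02), RPL6B (2.29), RPL12A (2.42), RPL13B (2.34), RPL14A (1.90), RPL16B (2.26), RPL18B (2.02), RPL20A (2.33), RPL21B (2.69), RPL22A (2.03), RPL34A (1.92), RPL34B (3.10), RPL35A (1.89), RPL37A (2.08) and RPP1B (2.15), all higher at 18 h. The values of RPL34B and RPP1B included an array from a displaced block.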

How the results depend on the processing

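Lower levels at 1 h were the most stable when single arrays were left out: the count of 74 ranged from 73 to 76. The members' median at 1 h then ranged from -4.13 to -3.82. It was -4.49 without centring and -3.41 with the brightness trend removed, where 74 were again called lower (1201 of all genes). Removing that trend gave medians of -1.7 at 30 min and -1.83 at 18 h, with 62 and 71 called lower (644 and 690 of all genes). With only the Cy5 arrays, 71 members were called lower at 1 h (894 of all genes). Leaving out single arrays gave 0 to 2 called lower at 15 min (medians -0.90 to -0.36), 9 to 74 at 30 min (-3.42 to -1.83) and 35 to 73 at 18 h (-2.49 to -1.97). For differences it gave 0 to 57 lower for 30 min minus 15 min (-2.63 to -1.13), 0 to 2 lower for 1 h minus 30 min (-1.93 to -0.40), 2 to 48 higher for 18 h minus 1 h (1.34 to 1.91), 0 to 1 higher for 18 h minus 30 min (-0.32 to 1.09) and 10 to 18 pairs. Over all genes these fits gave 2 to 16, 21 to 1001, 1069 to 1309 and 152 to 551 lower, in order of time. For the same differences they gave 0 to 205 and 0 to 6 lower, then 54 to 276 and 7 to 70 higher.

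Without centring, 22 members were lower at 18 h (46 of all genes) and 53 higher from 1 h to 18 h (289, members' median 2.63). From 30 min to 1 h, 0 were lower (1 of all genes). With arrays scaled to equal spread there were 2 lower at 15 min (54 of all genes) and 45 at 30 min (510). This scaling gave 8 higher from 1 h to 18 h (140) and 0 lower from 30 min to 1 h (0). With the brightness trend removed there was 1 lower at 15 min (46 of all genes). That fit gave 37 lower from 30 min to 1 h (114) and 43 higher from 1 h to 18 h (312). Array weights gave 1 at 15 min, 70 lower from 15 to 30 min, 12 lower from 30 min to 1 h, 52 higher from 1 h to 18 h and 19 higher from 30 min to 18 h. The dye term gave 1 higher from 1 h to 18 h (58 of all genes) and 0 lower from 30 min to 1 h (0). The Cy5 arrays alone gave 0 and 0 (41 and 0 of all genes). The first spot alone gave 1 lower from 30 min to 1 h (2 of all genes). The 30 min arrays alone gave 0 members called at 30 min, beside 0 lower and 15 higher of all genes. With 1 h arrays alone 0 pairs passed, where 6 arrays limit the p-value. The causes were not tested.

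Deviations of same-numbered arrays correlated at -0.55 to 0.64 (18 pairs, median r -0.03). Those of other-numbered arrays correlated at -0.75 to 0.63 (63 pairs, median -0.01). With so wide a spread the check cannot decide whether the replicate numbers pair arrays. A replicate block gave 1, 69, 73 and 64 members lower in order of time (5, 665, 1227 and 486 of all genes). It gave 0 lower from 30 min to 1 h and 0 higher from 1 h to 18 h (0 and 3 of all genes).

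The median difference from 30 min to 18 h (0.13) turned to -0.15 with arrays scaled and -0.18 with the trend removed. The RPL34 pair, not among those named by rule, turned from -0.22 to 0.03 without the displaced blocks. Among members and pairs named by rule, signs turned only for values near 0 or uncalled. These were, without centring, RPL15A (-0.16, -0.30 and 0.45 at 30 min, 1 h and 18 h), RPL41B (0.44) and RPL43B (0.35) at 18 h, and RPL8B (0.43), RPL15A (0.75), RPL30 (0.70), RPL31B (0.58) and RPL41A (0.58) from 1 h to 18 h. At 30 min they were RPL15A with the trend removed (-0.14), RPL31B with weights (0.12) and RPL43B with the first spot (0.04) or the block (0.02). The last spot put RPL43B at 0.00 at 1 h. At 18 h RPL41B was 0.17 with the dye term and RPL15A 0.10 with weights, 0.14 with the first spot and 0.24 with the block. For pairs, RPL12 was 0.02 (last spot), 0.01 (scaled), 0.01 (trend removed) and 0.11 (Cy5 arrays), RPL21 was -0.01 (first spot) and -0.12 (Cy5 arrays), and RPL16 -0.01 (Cy5 arrays). Leaving out single arrays put RPL31B (-0.61 to 0.24) and RPL43B (-0.09 to 0.06) at 30 min, and RPL15A (-0.16 to 0.20), RPL41B (-0.35 to 0.17) and RPL43B (-0.23 to 0.04) at 18 h, on both sides of 0, likewise RPL12 (-0.04 to 0.05), RPL21 (-0.06 to 0.13) and RPL16 (-0.06 to 0.10).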
